A study of Mus musculus with 4 samples.

Results

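Hp, Kng1, Kng2, Trf and Agt encode proteins that the liver secretes into plasma, and they were read here in single stromal cells of mouse bone marrow. They are 5 of the 27998 genes counted in the series, under the identifiers ENSMUSG00000031722, ENSMUSG00000022875, ENSMUSG00000060459, ENSMUSG00000032554 and ENSMUSG00000031980 in that order. The members were chosen from measured values, namely their summed levels and shares of positive cells by cell type and library, so those levels are given as a description with no test. Cells were sorted from crushed, collagenase-digested femora and tibiae of C57BL/6 mice as CD45-, TER119-, CD31-, CD140a+ and CD51+ cells, which removes most blood and endothelial cells. Each of the 4 groups had 1 library. NHD13Tg mice carry a Nup98-HoxD13 fusion transgene, a construct known to be driven by Vav1 elements, which are active in blood cells, and were set against wild-type mice of library WT_A1. Abcg2-MDS/AML is a model of myelodysplastic syndrome (MDS) and acute myeloid leukaemia (AML) and was set against wild-type mice of library Control. The labels do not say how the Abcg2 model was made, and ages, numbers of mice and any pooling were not known here. Abcg2 itself stood at 36.3 CPM (counts per 1000000 summed UMIs) in gated stromal cells of Abcg2-MDS/AML and 79.9 CPM in Control, and Hoxd13 had 4 UMIs in NHD13Tg and 1 in WT_A1, so neither checks a label in these cells.

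Haptoglobin, the product of Hp, binds free haemoglobin in plasma, and transferrin, the product of Trf, carries iron to cells that bear its receptor. Kininogens, made from Kng1 and its mouse paralogue Kng2, are the precursors from which kallikreins cut the peptide bradykinin. Angiotensinogen, the product of Agt, is cut by renin to the precursor of angiotensin II. The liver raises haptoglobin in the acute-phase response, which IL-6, through STAT3, and C/EBP factors drive. In the marrow, reticular stromal cells marked by Lepr, Adipoq and Cxcl12 line the sinusoids and support blood stem cells.

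Promoter sequence was at hand for 2 of the 5 members, and it is shown because acute-phase factors act through short DNA motifs in such windows. Each window holds the 250 bases before the gene's start, 5′ to 3′ on the gene's strand, from RefSeq on build GRCm38.p6. Capitals mark every match to one of 5 motifs searched on both strands.
Kng2, chr16:23029102-23029351, minus strand: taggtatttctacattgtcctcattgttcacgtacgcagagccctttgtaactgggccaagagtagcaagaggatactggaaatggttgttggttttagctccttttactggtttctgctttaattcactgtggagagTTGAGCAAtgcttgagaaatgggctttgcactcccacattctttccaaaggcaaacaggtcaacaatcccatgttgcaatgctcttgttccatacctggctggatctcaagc
Agt, chr8:124569707-124569956, minus strand: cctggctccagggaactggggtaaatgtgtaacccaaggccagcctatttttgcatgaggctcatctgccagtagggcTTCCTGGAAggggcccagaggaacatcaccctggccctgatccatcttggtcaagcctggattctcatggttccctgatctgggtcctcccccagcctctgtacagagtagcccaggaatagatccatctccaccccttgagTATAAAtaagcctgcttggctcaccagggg
The capitals in Kng2 are a match to the C/EBP motif TTGCNNAA on the opposite strand, 112 to 105 bases before the start. The first capitals in Agt match the STAT motif TTCNNNGAA, 172 to 164 bases before the start, and the second are the TATA box TATAAA, 30 to 25 bases before it. Neither window held the EBF motif CCCNNGGG or the glucocorticoid receptor motif ACANNNTGT. Of 32851 promoter windows of the same length, 9.56% held the C/EBP motif, 7.02% the STAT motif, 12.4% TATAAA, 11.8% the EBF motif and 5.84% the glucocorticoid receptor motif. A match is a description of letters and not a binding site.

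The libraries held 38763489 UMIs (unique molecular identifiers, 1 for each captured RNA molecule) in NHD13Tg, 37368880 in WT_A1, 36133716 in Abcg2-MDS/AML and 46033790 in Control. Barcodes with at least 2000 UMIs, at least 500 genes and no more than 10% mitochondrial UMIs were taken as cells, which left 5766, 4973, 5586 and 5158 in the same order, with medians of 5000, 5452, 4186 and 5058.5 UMIs. Cell barcodes found in at least 2 libraries numbered 60. Cells were typed by the UMIs per 10000 of a few marker genes. The MSC (mesenchymal stromal cell) gate asked for Adipoq, Lepr and Esm1 at 10 or more in sum, and the osteoblast gate for Bglap and Bglap2, which encode osteocalcin, at 100 or more. The chondrocyte gate asked for Col9a1, Col9a2 and Col9a3 at 15 or more, the fibroblast gate for Dpt, Clec3b and Col14a1 at 8 or more, and the tendon gate for Thbs4 and Myoc at 30 or more. A cell could pass several gates, and a type with under 50 cells in a library was not compared.

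The MSC gate held 1902 of 5766 cells in NHD13Tg, 694 of 4973 in WT_A1, 189 of 5586 in Abcg2-MDS/AML and 431 of 5158 in Control. In 3 of these libraries the gated cells carried the other marks of marrow reticular cells. Cxcl12, the chemokine that holds blood stem cells in the marrow, stood at 16883 CPM in NHD13Tg, 17698 CPM in WT_A1 and 16621 CPM in Control, but at 1627 CPM in Abcg2-MDS/AML. Of 14 further MSC genes, 10 were at least 2-fold lower in gated Abcg2-MDS/AML cells than in Control, as were 12.7% of all 6488 measured genes. The tendon gate gene Thbs4 was 693 CPM in Abcg2-MDS/AML and 53.8 CPM in Control. Of the 189 gated Abcg2-MDS/AML cells, 23 also passed the tendon gate and 16 the fibroblast gate. The label of MSC is thus carried in that library by Lepr, at 1456 CPM against 1070 CPM in Control, more than by Adipoq, at 226 CPM against 3336 CPM. Comparisons of that pair set cells of different marker content side by side, and the part of this in the values below was not tested.

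In MSC-gated cells Hp, the haemoglobin-binding member, reached 11887 CPM in NHD13Tg (95% counting interval 11818 to 11957), 6790 CPM in WT_A1 (6702 to 6879), 3832 CPM in Abcg2-MDS/AML (3685 to 3985) and 5174 CPM in Control (5068 to 5283). Intervals cover counting error only, since no group had a replicate. In every library the MSC gate stood far above the other types, with no overlap of intervals. Fibroblast-gated cells, which make loose connective tissue, had 264, 80.6, 38.6 and 44.2 CPM in NHD13Tg, WT_A1, Abcg2-MDS/AML and Control. Tendon-gated cells had 249, 71.1, 37.9 and 34.1 CPM in that order, and the intervals of fibroblast- and tendon-gated cells overlapped in all 4 libraries. Osteoblast-gated cells had 195 CPM in NHD13Tg, 86.8 CPM in WT_A1 and 6.03 CPM in Control, and chondrocyte-gated cells 74.4 CPM in Abcg2-MDS/AML and 18.3 CPM in Control. The next type below the MSC gate was thus not the same one in each library. Cells that also passed the MSC gate weighed on these low sums. In NHD13Tg, 76 of the fibroblast-gated cells did so and held 66.3% of that type's Hp UMIs, and 46 of the tendon-gated cells held 71.8%. In Control, 5 such fibroblast-gated cells held 81.9%. Without them fibroblast-gated cells had 93.1, 58.4, 39.3 and 8.14 CPM of Hp in NHD13Tg, WT_A1, Abcg2-MDS/AML and Control, and tendon-gated cells 73.6, 36.7, 38.6 and 6.65 CPM. The osteoblast-gated cells of NHD13Tg, none of which passed the MSC gate, then had the highest of these levels, with 32.5% of their Hp UMIs in 1 cell. A UMI of Hp was found in 96.2% of MSC-gated cells in NHD13Tg, 91.1% in WT_A1, 56.1% in Abcg2-MDS/AML and 96.8% in Control. With every cell thinned to 2000 UMIs the shares were 95.6, 89.8, 53.4 and 94.9%.

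Free RNA, read in barcodes of 1 to 100 UMIs, held Hp at 2994 CPM in NHD13Tg, 1089 CPM in WT_A1, 519 CPM in Abcg2-MDS/AML and 235 CPM in Control. It was higher in NHD13Tg than in WT_A1, and in Abcg2-MDS/AML than in Control. Fibroblast-gated cells outside the MSC gate had a UMI of Hp in 9.30, 6.38, 3.37 and 1.38% of thinned cells in the same order. Median depths were 5480, 5556.5, 3903 and 3773 UMIs in all fibroblast-gated cells, against 4482, 4422, 3253 and 3583 UMIs in MSC-gated cells. As a multiple of the free RNA, Hp in those fibroblast-gated cells stood at 0.0311 in NHD13Tg, 0.0537 in WT_A1, 0.0756 in Abcg2-MDS/AML and 0.0346 in Control. The shares in fibroblast-gated cells outside the MSC gate serve as a comparison for the MSC gate. Whether that RNA was free or the cells' own was not tested. The defining genes of hepatocytes were at or near 0. Of 13 hepatocyte genes, 9, among them albumin (Alb), Ttr, the fibrinogen genes Fga, Fgb and Fgg, and Hnf4a, had 0 UMIs in MSC-gated cells of all 4 libraries, and the list summed to 6.71, 4.21, 16.6 and 30.1 CPM.

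Trf stood at 1541 CPM in MSC-gated cells of NHD13Tg, 604 CPM in WT_A1, 499 CPM in Abcg2-MDS/AML and 841 CPM in Control. The counting intervals of Trf were 1516 to 1567, 577 to 631, 447 to 556 and 798 to 885 CPM. NHD13Tg was highest and Abcg2-MDS/AML lowest. The 4 intervals did not overlap, but they cover counting error alone. The share of all genes that separate in this way was not counted. Fibroblast-gated cells had 51.9, 19.7, 18.0 and 16.0 CPM in that order, and tendon-gated cells 57.4, 19.5, 7.95 and 5.68 CPM. These types had overlapping intervals in NHD13Tg and WT_A1. Without cells that also passed the MSC gate, fibroblast-gated cells had 37.6 CPM in NHD13Tg, 17 CPM in WT_A1, 17.9 CPM in Abcg2-MDS/AML and 6.26 CPM in Control. In osteoblast-gated cells of Control no UMI of Trf was found, which has an exact upper bound of 5.56 CPM, while NHD13Tg had 40.3 CPM and WT_A1 22.3 CPM there. A UMI was found in 77.0, 59.7, 42.3 and 67.7% of MSC-gated cells, and in 71.0, 45.8, 37.0 and 58.9% after thinning. Fibroblast-gated cells outside the MSC gate gave 6.63, 3.02, 3.07 and 0.552% after thinning. Trf in those cells stood at 0.105, 0.152, 0.352 and 0.172 times its free RNA. The MSC gate thus stood apart from these fibroblast-gated cells in every library.

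In MSC-gated cells Kng1 had 764 CPM in NHD13Tg, 422 CPM in WT_A1, 98.4 CPM in Abcg2-MDS/AML and 487 CPM in Control. Kng2 had 873, 400, 200 and 488 CPM in the same libraries. The counting intervals of Kng1 were 747 to 782, 400 to 444, 75.9 to 125 and 455 to 521 CPM. Those of Kng2 were 855 to 892, 379 to 422, 167 to 237 and 455 to 522 CPM. For both, NHD13Tg was highest and Abcg2-MDS/AML lowest. Their counts carry a limit of their own. In the transcripts Kng1-201 and Kng2-202 of a GENCODE annotation, 32.6% of the 50-base windows in the last 500 bases of either gene also occur in the other, so the split of counts between the paralogues is uncertain. In that annotation Kng2 also overlaps the pseudogene Gm6493 on its strand.

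Outside the MSC gate both were low. Fibroblast-gated cells had 12.7, 2.84, 0.678 and 2.46 CPM of Kng1 in NHD13Tg, WT_A1, Abcg2-MDS/AML and Control, against 25.2, 12.6, 45.4 and 7.37 CPM of Kng2. Without cells that also passed the MSC gate, these were 3.14, 1.63, 0.689 and 0.626 CPM of Kng1 and 13.6, 11.1, 45.5 and 4.38 CPM of Kng2. In Abcg2-MDS/AML fibroblast-gated cells Kng2 came to 2.25 times its level in free RNA, where Kng1 came to 0.0581 times and Hp to 0.0744 times. The 134 UMIs of Kng2 lay in 87 of those 668 cells, and the richest cell held 4.48% of them. Kng2 in these fibroblast-gated cells was 2.57 above Control on the log2 scale (interval 1.77 to 3.61), and in tendon-gated cells 2.48 above (1.43 to 3.95). Outside the MSC gate these ratios were 3.28 (2.29 to 4.72) and 3.60 (2.19 to 6.13). Kng1 gave 2 UMIs in the same fibroblast-gated cells and 4 in Control. A UMI was found in 87.8, 71.2, 20.1 and 78.0% of MSC-gated cells for Kng1 and in 90.0, 74.6, 36.5 and 78.4% for Kng2. After thinning Kng1 was found in 71.5, 53.2, 11.1 and 57.1% and Kng2 in 75.9, 50.6, 27.0 and 61.0%. Fibroblast-gated cells outside the MSC gate gave 0.291, 0.341, 0 and 0.276% for Kng1 and 1.98, 2.00, 6.90 and 1.10% for Kng2 after thinning, so Kng2 of Abcg2-MDS/AML was the highest of these.

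In MSC-gated cells Agt, the angiotensin precursor gene, had 461 CPM in NHD13Tg, 348 CPM in WT_A1, 68.1 CPM in Abcg2-MDS/AML and 569 CPM in Control. Its intervals were 448 to 475, 328 to 369, 49.7 to 91.1 and 534 to 606 CPM. Control was highest and Abcg2-MDS/AML lowest. Osteoblast-gated cells had 48.5 CPM in NHD13Tg, 52.7 CPM in WT_A1 and 40.7 CPM in Control, with overlapping intervals. Chondrocyte-gated cells had 31.0 CPM in Abcg2-MDS/AML and 21.3 CPM in Control. Tendon-gated cells had 24.7, 18.9, 5.84 and 26.5 CPM in NHD13Tg, WT_A1, Abcg2-MDS/AML and Control, and fibroblast-gated cells 22.3, 19.8, 8.47 and 14.7 CPM. Without cells that also passed the MSC gate, tendon-gated cells had 17.5, 16.9, 5.95 and 25.7 CPM and fibroblast-gated cells 15.9, 17.6, 8.26 and 13.1 CPM. In chondrocyte-gated cells of Abcg2-MDS/AML Agt reached 1.29 times its free RNA, where Hp reached 0.143 times and Kng1 0.0278 times. Osteoblast-gated cells of Control gave 0.797 times for Agt and 0.0256 times for Hp. A UMI of Agt was found in 24.0% of the chondrocyte-gated Abcg2-MDS/AML cells, whose median depth was 10861 UMIs, and in 5.77% after thinning. In MSC-gated cells the shares were 81.4, 68.2, 18.5 and 79.4%, and 57.9, 46.5, 10.6 and 62.2% after thinning.

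**Figure D1:**
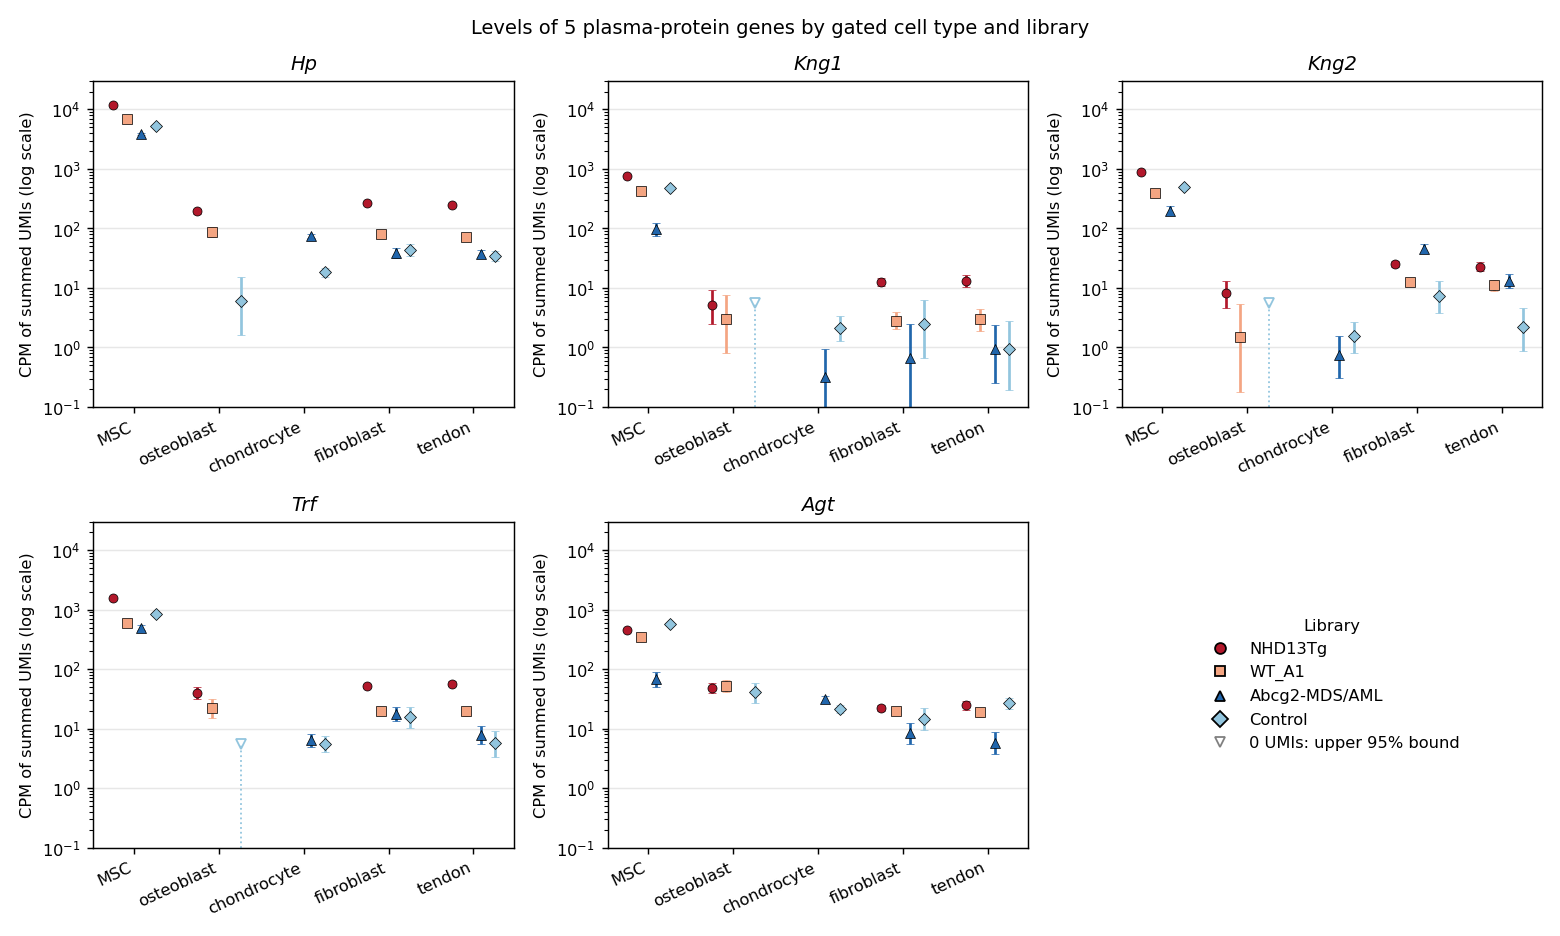
Summed level (CPM, log axis) of each member in every gated type with at least 50 cells, by library, with 95% counting intervals. The MSC gate is the top level for each gene in each library, and the smallest distance is that of Agt in Abcg2-MDS/AML, 68.1 CPM against 31.0 CPM in chondrocyte-gated cells.

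Over the next highest type, the median log2 ratio of the MSC gate across libraries was 6.83 for Kng1, 5.98 for Hp, 5.05 for Kng2, 4.77 for Trf and 2.98 for Agt. All 5 were at least 2-fold above every other type in each library, and the members were chosen for this. Among all genes with at least 20 CPM in 1 type, the same held for 9.34% in NHD13Tg, 12% in WT_A1, 6.53% in Abcg2-MDS/AML and 11% in Control. The lowest ratios were 1.15 for Agt over chondrocyte-gated cells and 2.14 for Kng2 over fibroblast-gated cells, both in Abcg2-MDS/AML. All other ratios were at least 2.72. With only cells of exactly 1 gate, the medians of Hp and Kng1 were 6.68 and 7.83.

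The MSC gate held most UMIs of each member in NHD13Tg, WT_A1 and Control, and the smaller part in Abcg2-MDS/AML. The gate held 95.1% of Hp UMIs in NHD13Tg, 90.2% in WT_A1 and 94.6% in Control, against 20% in Abcg2-MDS/AML. For Kng1 the shares were 97.0, 94.9 and 97.3%, against 35.9% in Abcg2-MDS/AML. For Kng2 they were 95.2, 83.3 and 96.8%, against 23.7%, and for Trf 92.6, 80.7 and 93.0%, against 27.8%. For Agt the gate held 87.2% in NHD13Tg, 66.1% in WT_A1, 6.49% in Abcg2-MDS/AML and 54.2% in Control. In Abcg2-MDS/AML the cells in no gate held 72.5% of Hp, 59.1% of Kng1, 44.3% of Kng2 and 60.4% of Trf UMIs. The other gates there held 48.2% of Agt UMIs.

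**Figure D2:**
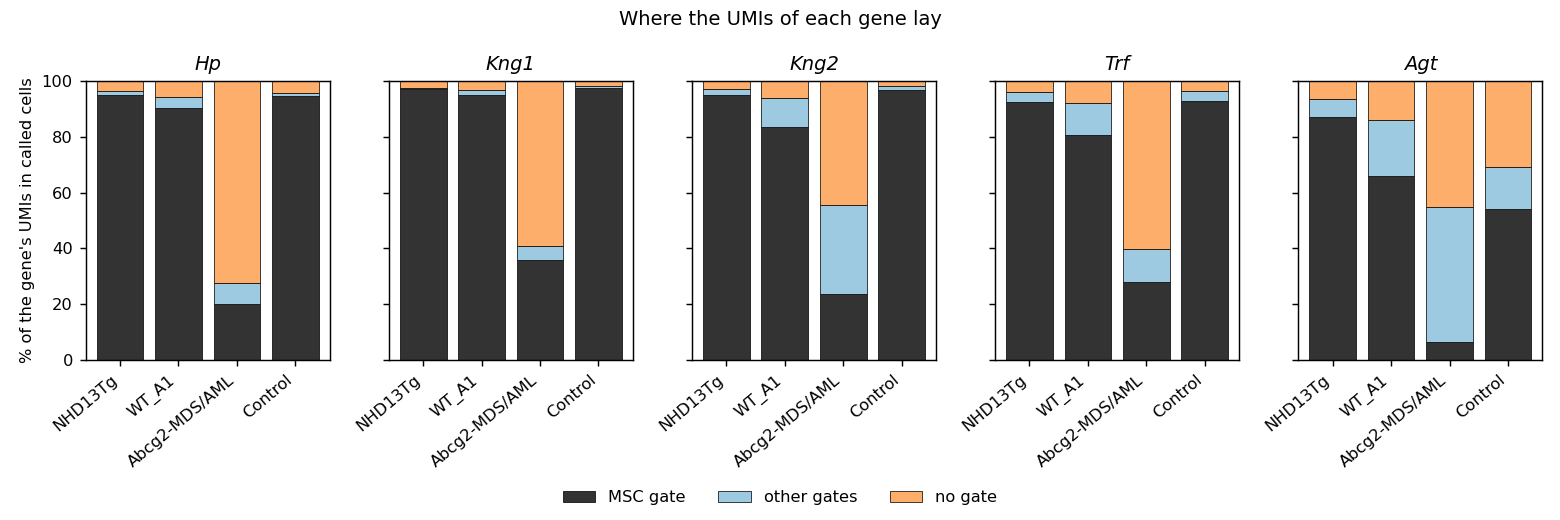
Share (percent) of each member's UMIs that lay in the MSC gate, in other gates and in no gate, by library. In Abcg2-MDS/AML the MSC gate held 20% of Hp UMIs and the cells in no gate 72.5%, whereas in the other libraries the gate held at least 90.2%.

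The cells in no gate of Abcg2-MDS/AML were looked at further, in a class defined after the values had been seen and so described with no test. Among 2951 such cells, 169 had at least 20 UMIs of Hp per 10000, and they held 67.8% of that library's Hp UMIs. In sum they had Hp at 10818 CPM, Trf at 489 CPM, Kng2 at 126 CPM, Kng1 at 104 CPM and Agt at 51.6 CPM. Hp chose these cells, so its level there is no finding, and the like set is the 72 MSC-gated cells of that library past the same threshold. Those had Trf at 962 CPM, Kng2 at 332 CPM, Kng1 at 201 CPM and Agt at 116 CPM, each above its level in the cells in no gate. These cells had stromal RNAs, with Vcam1, an adhesion molecule for blood cells, at 1376 CPM, Cxcl12 at 1250 CPM and Kitl, the stem cell factor, at 665 CPM. They had Lepr at 240 CPM, Adipoq at 54.1 CPM and Esm1 at 25.2 CPM, below the gate. Spp1, which encodes osteopontin, stood at 9757 CPM, Saa3, an acute-phase serum amyloid, at 835 CPM and the matrix protease gene Mmp9 at 581 CPM. The granulocyte genes S100a8 and Camp stood at 10.1 and 3.77 CPM. Of the 169 cells, 2 had 100 or more UMIs of the granulocyte list per 10000, with S100a8 and Camp at 0 UMIs. They held 5.97% of the library's Hp UMIs and 130 of the 664 Saa3 UMIs. The same threshold took 72 cells in NHD13Tg, 27 in WT_A1 and 7 in Control. All 7 of Control passed that mark of the granulocyte list, with S100a8 at 178002 CPM and Camp at 53816 CPM, and with no UMI of Kng1, Kng2 or Agt. In NHD13Tg 7 of the 72 and in WT_A1 2 of the 27 passed it too. The other 65 cells of NHD13Tg and 25 of WT_A1 also had stromal RNAs. They had Cxcl12 at 9577 and 9965 CPM, Kitl at 729 and 710 CPM and Vcam1 at 450 and 874 CPM. Kng2 stood at 367 and 284 CPM in them. They held 2.73 and 3.09% of their libraries' Hp UMIs, so such cells were not particular to Abcg2-MDS/AML. Over all cells in no gate, Hp came to 646 CPM in Abcg2-MDS/AML and 16.8 CPM in Control, while Agt came to 22.1 and 23.1 CPM.

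Levels were set against the sum of the gate genes. Cells just inside the threshold, with 10 to 15 UMIs of the gate genes per 10000, had Hp at 5647 CPM in NHD13Tg, 3285 CPM in WT_A1, 2768 CPM in Abcg2-MDS/AML and 1940 CPM in Control. Cells just outside it, with 5 to 10, had 2187, 927, 2334 and 116 CPM in the same order. In Abcg2-MDS/AML the threshold thus separated Hp levels that lay close together. Of the 4 libraries, Control had the lowest Hp just outside and the largest ratio across the threshold. In NHD13Tg, Hp stood at 10969, 13250 and 12769 CPM in the bins of 15 to 30, 30 to 60 and 60 or more. Agt stood at 395, 515 and 570 CPM and Trf at 1180, 1686 and 2287 CPM in those bins. Hp was thus lower in the top bin than in the one before it, and the same held in WT_A1, at 7340 CPM after 8198 CPM. In Abcg2-MDS/AML Hp stood at 5370 CPM at 15 to 30 and 3967 CPM at 30 to 60. The Abcg2-MDS/AML gate held 94 of 189 cells at 10 to 15 and 2 at 60 or more, against 19 and 192 of 431 in Control.

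**Figure D3:**
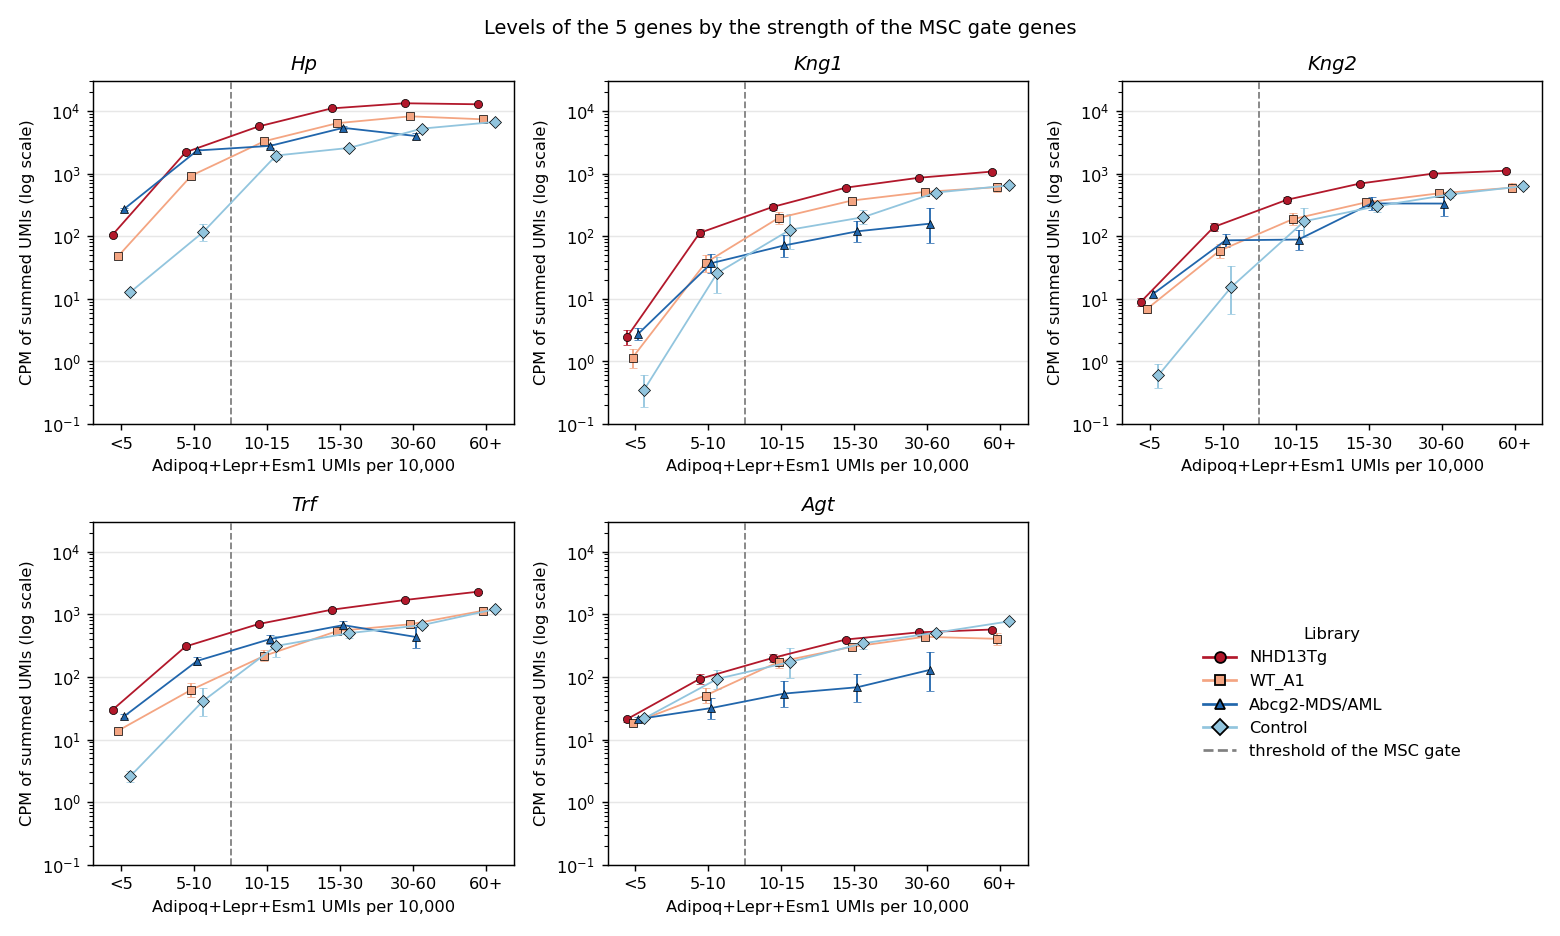
Summed level (CPM, log axis) of each member in cells binned by the sum of Adipoq, Lepr and Esm1 (UMIs per 10000), by library, with bins under 15 cells left out. Hp of Abcg2-MDS/AML was 2334 CPM just below the gate and 2768 CPM just above it, where Control had 116 and 1940 CPM.

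In NHD13Tg, WT_A1 and Control several members were often found in the same MSC-gated cell. Whether this goes beyond what the shares of the single genes give was not tested. After thinning, all 5 were found in 29.2% of MSC-gated cells in NHD13Tg (exact binomial interval 27.2 to 31.3%), 7.35% in WT_A1 (5.52 to 9.55%) and 16.7% in Control (13.3 to 20.6%). In Abcg2-MDS/AML they were found together in 0 of 189 cells, where a count of 0 allows a share of up to 1.59% by 3 counts of the total and the exact interval runs to 1.93%. None of the members was found in 36.5% of its gated cells. None was found in 3.47% in NHD13Tg, 7.64% in WT_A1 and 2.55% in Control. The most frequent number of members per cell was 4 in NHD13Tg and Control, and 3 in WT_A1.

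**Figure D4:**
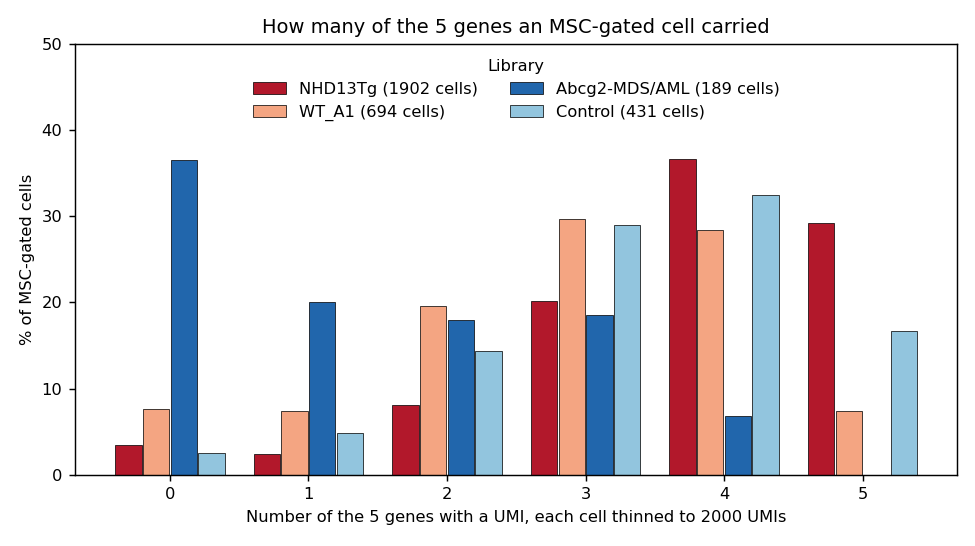
Share of MSC-gated cells (percent) by the number of the 5 members found in a cell after thinning to 2000 UMIs, by library. All 5 were found in 29.2% of cells in NHD13Tg and in none of 189 in Abcg2-MDS/AML, where 36.5% held no member.

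The first comparison asks how marrow stroma differs with the Nup98-HoxD13 transgene. In MSC-gated cells all 5 members were higher in NHD13Tg than in WT_A1, and Trf and Kng2 passed the size rule, which asks for a ratio of at least 2 with a counting interval that leaves out 1. It is not a test. The rule took 1.07% of 6169 genes as higher and 1.93% as lower in this pair. Trf was 2.55-fold higher (log2 ratio 1.35, interval 1.29 to 1.42) and Kng2 2.18-fold higher (1.13, 1.04 to 1.21). Kng1 was 1.81-fold higher (0.86, 0.78 to 0.94), Hp 1.75-fold (0.81, 0.79 to 0.83) and Agt 1.32-fold (0.41, 0.31 to 0.50). The median of the 5 was 0.86, where the median over all 6169 genes was -0.05 and the middle 95% ran from -0.91 to 0.72. Library sizes by the TMM method (trimmed mean of M values) shift every log2 ratio of this pair up by 0.16 and take Kng1 past the rule too. At a matched sum of the gate genes the members kept their direction over the 4 bins of the gate. Hp ran from 0.69 to 0.80, Kng1 from 0.58 to 0.82, Kng2 from 0.89 to 1.04, Trf from 1.0 to 1.68 and Agt from 0.20 to 0.49. Of these bins, Agt at 10 to 15 had an interval that holds 0. The bins match the sum and not its make-up. In MSC-gated cells Adipoq stood at 2072 CPM in NHD13Tg against 1239 CPM in WT_A1, and Lepr at 877 CPM against 1398 CPM. Vcam1 stood at 806 CPM against 1521 CPM. The part of this in the members' ratios was not tested.

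Other values moved with this pair. Free RNA held Hp at 2994 CPM in NHD13Tg against 1089 CPM in WT_A1, and the fibroblast-gated cells differed by 1.71 in Hp, 2.15 in Kng1, 1.0 in Kng2, 1.40 in Trf and 0.17 in Agt on the log2 scale. Without the 76 cells of NHD13Tg and 49 of WT_A1 that also passed the MSC gate, these ratios were 0.67, 0.93, 0.29, 1.15 and -0.15, and the intervals of Kng2 and Agt held 0. The granulocyte list summed to 614 CPM in MSC-gated cells of NHD13Tg and 2098 CPM in WT_A1, and the erythroid list to 415 and 281 CPM. Their part in the members' ratios was not tested. All 10 granulocyte genes had a UMI in gated NHD13Tg cells, and S100a8 stood at 195 CPM in NHD13Tg against 896 CPM in WT_A1.

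The second comparison asks the same of the Abcg2 model of MDS and AML. All 5 members were lower in MSC-gated cells of Abcg2-MDS/AML than in Control, and Agt, Kng1 and Kng2 passed the size rule, which took 12.7% of 6488 genes as lower and 7.52% as higher. The log2 ratio was -3.05 for Agt (interval -3.53 to -2.63), -2.30 for Kng1 (-2.70 to -1.94) and -1.28 for Kng2 (-1.56 to -1.02). It was -0.75 for Trf (-0.93 to -0.58) and -0.43 for Hp (-0.50 to -0.37). The median of the 5 was -1.28, where all 6488 genes had a median of -0.11 and a middle 95% from -2.18 to 1.80. Agt and Kng1 thus lay below that range. At matched gate strength Hp did not keep its direction. It had 0.51 in the bin of 10 to 15, 1.07 in that of 15 to 30 and -0.39 in that of 30 to 60. Trf had 0.35, 0.43 and -0.61 there, of which the first has an interval that holds 0. These bins held 94, 71 and 22 gated cells of Abcg2-MDS/AML and 19, 61 and 159 of Control. Agt stayed lower in each bin, with -1.69, -2.29 and -1.90, and so did Kng1, with -0.87, -0.74 and -1.59, of which the first has an interval that holds 0. Kng2 had -0.99, 0.14 and -0.46, each with an interval that holds 0. It no longer passed the size rule with doubled gate thresholds, at -0.61. Cells with 4000 UMIs or more gave 0.20 for Hp, and subtraction of the free RNA by its osteocalcin gave 0.55 for Hp and 0.27 for Trf. That subtraction put the part of free RNA in gated cells at 0.556 in Abcg2-MDS/AML and 0.0503 in Control. By haemoglobin the part was 0.108 and 0.0386. The osteocalcin subtraction counts all osteocalcin RNA of gated cells as free, which was not tested. The direction of Hp and Trf in this pair thus depended on these settings. The largest single cell held 8.65% of the gated Hp UMIs in Abcg2-MDS/AML. The granulocyte list summed to 57.5 CPM in gated cells of Abcg2-MDS/AML and 650 CPM in Control, the erythroid list to 3.03 and 173 CPM, and the osteoblast gene Bglap to 275 and 55.6 CPM. Their part in the members' ratios was not tested.

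**Figure D5:**
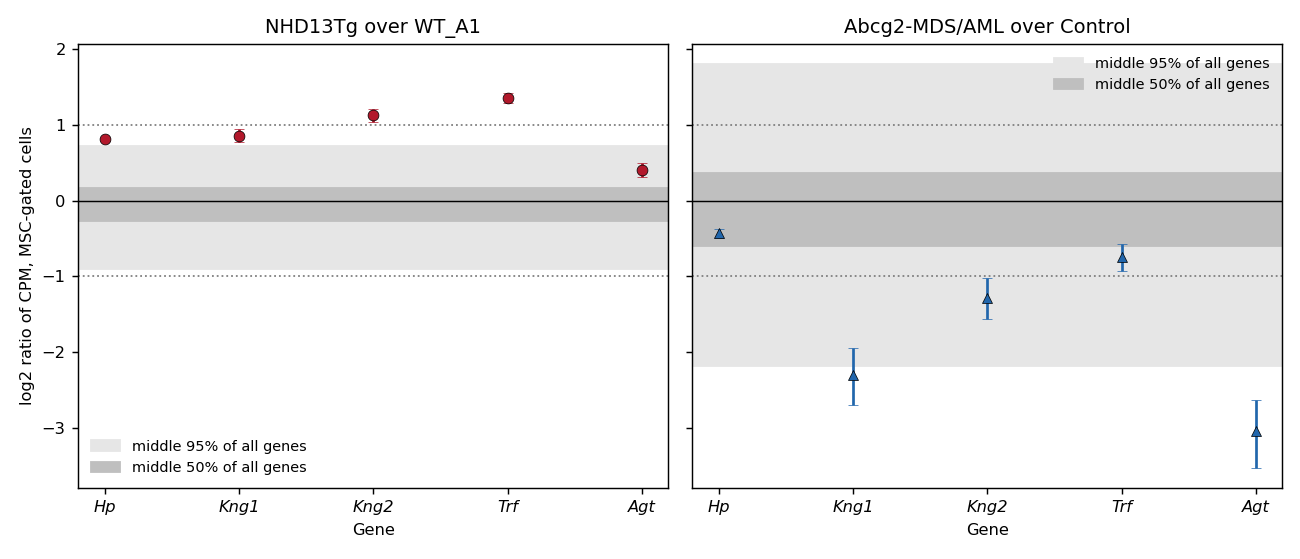
Log2 ratio of each member in MSC-gated cells for NHD13Tg over WT_A1 and for Abcg2-MDS/AML over Control, with 95% counting intervals, against the middle 95% of all genes (grey) and the 2-fold lines (dotted). The 5 ratios run from 0.41 to 1.35 in the NHD13Tg pair and from -3.05 to -0.43 in the Abcg2-MDS/AML pair.

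Counted over all cells the pairs looked different, since the share of MSC-gated cells and the levels of cells outside the gate both enter. Hp was 2.20 higher on the log2 scale in all cells of NHD13Tg than in those of WT_A1, Trf 2.62 and Agt 1.47. In the Abcg2-MDS/AML pair Hp was 0.76 higher over all cells, while Kng1 had a ratio of -1.92 and Agt of -1.06. MSC-gated cells were 33.0% of cells in NHD13Tg and 14% in WT_A1, and 3.38% in Abcg2-MDS/AML and 8.36% in Control.

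Other plasma proteins of the liver were set beside the members. Of 84 genes on this list, 24 had at least 20 CPM in MSC-gated cells of 1 library. With the members left out, 5 of 16 measured were higher and 0 lower by the size rule in NHD13Tg than in WT_A1, with a median of 0.46. In the Abcg2-MDS/AML pair 6 of 18 were higher and 2 lower, with a median of 0.10. Over all genes the rule took 1.07% as higher and 1.93% as lower in the NHD13Tg pair, and 7.52 and 12.7% in the other. Apoe, a lipid carrier, stood at 5200, 3905, 4827 and 4673 CPM in NHD13Tg, WT_A1, Abcg2-MDS/AML and Control. Serping1, which encodes the inhibitor of C1 and of plasma kallikrein, stood at 3278, 2312, 2145 and 2013 CPM. Apoe and the genes C2, C6 and Cp were, beside the members, those of the list at least 2-fold above every other type in 4 libraries. Of 13 transcription factors of liver, Cebpa alone was measured, at 138, 135, 25.7 and 128 CPM in NHD13Tg, WT_A1, Abcg2-MDS/AML and Control.

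Secreted acute-phase genes held the list members that were higher in both pairs. That list was chosen with earlier results of these data known, so this is a description. Saa3 stood at 303 CPM in NHD13Tg against 28.3 CPM in WT_A1, and at 53.0 CPM in the Abcg2-MDS/AML library, where Control had 0 UMIs. Serpina3n, an inhibitor of proteases, stood at 812 CPM against 254 CPM, and at 357 CPM against 9.26 CPM. Serpina3m stood at 45.2 CPM against 7.82 CPM, and at 28.8 CPM against 0 UMIs. These 3 passed the size rule as higher in both pairs. No other secreted acute-phase gene was past the rule in the same direction in both pairs, with the ferroxidase gene Cp at 842, 1007, 599 and 648 CPM in NHD13Tg, WT_A1, Abcg2-MDS/AML and Control, the interleukin-1 antagonist gene Il1rn at 631, 410, 121 and 387 CPM, and complement C3 at 199, 317, 773 and 251 CPM. Lrg1, a glycoprotein of the acute phase, was 308 CPM in NHD13Tg against 50.5 CPM in WT_A1 but 19.7 CPM in Abcg2-MDS/AML against 41.1 CPM in Control. Of 11 measured, 4 were higher and 0 lower in the NHD13Tg pair, and 5 higher and 2 lower in the other. The shares over all genes were 1.07% higher and 1.93% lower in the NHD13Tg pair, and 7.52 and 12.7% in the other. A further list, tied to acute-phase transcription, holds receptors, kinases, transcription factors, inhibitors and responsive genes. In the NHD13Tg pair 0 of its 17 measured genes passed the rule in either direction. In the Abcg2-MDS/AML pair 3 of 18 were higher and 3 lower: Cebpb, a C/EBP factor, stood at 945 CPM against 2287 CPM and Cebpa at 25.7 CPM against 128 CPM, and Socs3, an inhibitor of STAT3, at 836 CPM against 2226 CPM. The higher ones were Il6ra, a receptor chain for IL-6, at 51.5 CPM against 1.74 CPM (3 UMIs), and the glucocorticoid-responsive genes Fkbp5 at 114 CPM against 12.2 CPM and Tsc22d3 at 837 CPM against 178 CPM. Nfkbia, an inhibitor of NF-kappaB, had 1592, 1822, 1782 and 1628 CPM in NHD13Tg, WT_A1, Abcg2-MDS/AML and Control, and Nfkbiz 327, 537, 344 and 625 CPM.

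Genes that act with the members were measured in part. Their counts below stand beside shares over all genes of 1.07% higher and 1.93% lower in the NHD13Tg pair. In the Abcg2-MDS/AML pair those shares were 7.52 and 12.7%. Of the renin-angiotensin system 6 of 18 genes were measured, and renin (Ren1), Ace and the receptor Agtr1a were not. Without Agt, 0 of 5 were higher and 1 lower in the NHD13Tg pair, and 0 of 4 higher and 2 lower in the other. Enpep, a peptidase that cuts angiotensin II, was lower in both. It stood at 9.15 CPM in NHD13Tg against 26.8 CPM in WT_A1. In Abcg2-MDS/AML it stood at 12.1 CPM (8 UMIs) against 29.5 CPM (51 UMIs) in Control, with a log2 interval from -2.57 to -0.20. Mme, which encodes neprilysin, stood at 291, 289, 142 and 445 CPM and was 2-fold above every other type in all libraries. Atp6ap2, the prorenin receptor gene, stood at 109, 113, 118 and 153 CPM and Lnpep, a peptidase gene, at 46.8, 47.8, 42.4 and 45.1 CPM. Of the kallikrein-kinin system without the kininogens, 0 of 5 were called in the NHD13Tg pair, and 1 higher and 1 lower of 5 in the other. Hsp90aa1, which encodes a chaperone, stood at 761, 932, 664 and 727 CPM, and Cpd, a carboxypeptidase gene, at 70.6, 67.4, 72.7 and 69.4 CPM. Of the iron and haem list 18 of 25 genes were measured. Of those without Hp and Trf, 0 of 16 were higher and 1 lower in the NHD13Tg pair, and 2 higher and 4 lower of 14 in the other. The ferritin chain genes Fth1 and Ftl1 stood at 8480, 8493, 14505 and 8178 CPM and at 5916, 4918, 3469 and 3993 CPM in the 4 libraries, and Lrp1, a receptor that takes up haem bound to haemopexin, at 416, 318, 507 and 240 CPM.

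Across 17 sums of a type in a library, the patterns of the members were alike, with Pearson r of log2(CPM + 10) from 0.81 between Kng2 and Agt to 0.99 between Hp and Trf. These sums share libraries and depth, and the MSC gate sets much of the pattern. Among 4479 other genes the nearest to Hp were H2-Q10 (0.97), Gdpd2 (0.96) and Kitl (0.96), and to Trf Kitl (0.98), H2-Q10 (0.98) and Gdpd2 (0.97). The nearest to Kng1 were Gdpd2, Adgrf5 and Il1rn, each at 0.99, and to Kng2 Znrf1 (0.98), Rbpms (0.98) and Kitl (0.97). The nearest to Agt were Frmd4a (0.97), Sh3rf1 (0.96) and Tmbim6 (0.96).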

How the data were processed

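The files deposited by the authors hold UMI counts for each gene and barcode. The submitters' processing notes name Cell Ranger 3.1.0 and Seurat 3.2.3. For genome build, annotation and the counting of reads shared by paralogues, the status is: not given in the sources used here. Cells and gates were set as described, in Python 3.11.15. UMIs were summed per type and library, scaled to CPM, and compared as log2 ratios with 0.5 added to each count. Exact 95% intervals (Poisson for sums, binomial for shares, conditional binomial for ratios) cover counting error only. With 1 library per group there is no test and no p-value. A size rule, not a test, took genes with at least 20 CPM in 1 library whose libraries differed by 2-fold or more, the interval not holding 1. It was run on simulated counts with counting error alone, which do not cover differences between libraries. Doublets were kept in the main values. Scrublet in scanpy 1.11.5 marked 1 to 3 cells per library by its own threshold, so 0.8% per 1000 cells were removed as an alternative, and TMM sizes came from edgeR 4.0.16. The members and lists were chosen with earlier results of these data known. Named genes are the members, the 3 genes most alike to each, and, per list, up to 4 genes with the highest mean CPM and those past the size rule in the same direction in both pairs. A gene that this rule names is not reported here. Other named genes (Thbs4, Bglap, Lrg1, Cpd, Lrp1, Il6ra, Fkbp5, Tsc22d3, the genes of the cells in no gate, and genes named for being absent or for their role) were chosen after their values were seen.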

Additional observations from a re-analysis of the deposited data

Results flagged for a closer look

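In all 5 members the log2 ratio of NHD13Tg over WT_A1 and that of Abcg2-MDS/AML over Control had opposite signs in MSC-gated cells. The first minus the second came to 1.24 for Hp, 3.16 for Kng1, 2.41 for Kng2, 2.10 for Trf and 3.45 for Agt. With 1 library per group this difference was not tested. The sign of Hp and of Trf in the Abcg2-MDS/AML pair depends on the processing. At matched gate strength Kng2 had ratios of both signs in that pair, with intervals that hold 0 in the bins from 10 to 60.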

How the results depend on the processing

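No paired analysis was possible because each group had 1 library. The cause of each change below was not tested. The median log2 ratio of the MSC gate over the next highest type stayed above 0 for all 5 members in each alternative where it was computed. It was not computed with 1 CPM added or with free RNA subtracted by osteocalcin. The run at a minimum of 4000 UMIs left out Abcg2-MDS/AML, which had 41 gated cells. Over the next highest type, the median ratio came to 6.68 for Hp, 7.83 for Kng1 and 5.27 for Trf in cells of exactly 1 gate, to 5.38 for Trf with doubled gates, to 7.03 for Hp and 8.13 for Kng1 without doublets, and to 6.72 for Hp with free RNA subtracted by haemoglobin. That subtraction gave no value for MSC-gated cells of NHD13Tg, where the estimated part was 1.32, and so none for the NHD13Tg pair. The median of 6.72 thus leaves out NHD13Tg, the library with the lowest Hp ratio, 5.49, in the main values. The median of the 5 in the NHD13Tg pair was 1.03 with a gate of Lepr and Esm1 and 1.02 with TMM sizes. In the Abcg2-MDS/AML pair it was -0.61 with doubled gates, -1.68 with Lepr and Esm1, and, in alternatives added after the data were seen, -1.82 with a gate of Kitl and -0.27 with free RNA subtracted by osteocalcin. In that pair Hp turned to 0.20 at a minimum of 4000 UMIs, with 41 gated cells left in Abcg2-MDS/AML. With the osteocalcin subtraction Hp turned to 0.55 and Trf to 0.27. The osteocalcin subtraction counts all osteocalcin RNA of gated cells as free. Its estimated part was 0.556 in Abcg2-MDS/AML and 0.0503 in Control. Genes past the size rule in the NHD13Tg pair numbered 198 higher and 662 lower with no CPM minimum and 38 and 55 at 50 CPM, against 66 and 119. In the Abcg2-MDS/AML pair they numbered 250 and 452 at 50 CPM, against 488 and 821. Fibroblast-gated Agt in the NHD13Tg pair turned to -0.15, against 0.17, without cells that also passed the MSC gate, an alternative likewise added after the data were seen.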
